A study of Mus musculus with 6 samples.

Results

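Phototransduction shut-off and calcium feedback were followed through 10 genes, which encode the arrestins, the rhodopsin kinase, the GTPase-activating complex, phosducin, recoverin, and the guanylate cyclase with its activators. The members were all probe sets whose only gene symbol in the platform annotation was one of these 10. That rule gave 15 of the 45037 probe sets tested, and 10 of the 18193 genes named. Of the 10 genes, 7 had 1 probe set, while Arr3 and Rgs9 had 3 each and Guca1b had 2.

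Retinal RNA was measured on 6 single-colour Affymetrix arrays, 3 of prCAD mutant mice and 3 of wild type 129 mice, all about 4 weeks old. The mutant is homozygous (prCAD -/-) for loss of photoreceptor cadherin, which Cdhr1 encodes, and the submitters call it a model of retinal degeneration. Each array held RNA from a pool of 3 mice, so every spread given is a spread between pools. The labels name no strain for the mutant, so a strain difference and the loss of Cdhr1 cannot be told apart.

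Light activates rhodopsin or a cone opsin, transducin and a phosphodiesterase, which lowers cyclic GMP and closes channels in the outer segment. The response ends when the kinase Grk1 phosphorylates the pigment, an arrestin caps it, and Rgs9, anchored by Rgs9bp, speeds the hydrolysis of GTP on transducin. Closed channels let calcium fall, which releases the kinase from recoverin and turns the cyclase activators on, so that the cyclase Gucy2e restores cyclic GMP. Loss of the arrestin, the kinase or the Rgs9 complex slows recovery from light in mice.

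The targeted gene was checked first. The probe set of Cdhr1 averaged 4.16 ± 0.20 in mutant and 11.22 ± 0.21 in wild type retina (SD, n = 3 each), in log2 expression units. Array medians lay between 4.74 and 4.79. Rod marker genes that are not members were well expressed, and 0 of 16 lay below the overall median of 4.76 on every array. Wild type replicate 3 had the lowest mean correlation with the other arrays, 0.978, and mutant replicate 3 had 0.981, against a range of 0.982 to 0.988 for the remaining arrays. Pigment epithelium markers were higher in mutant arrays in 13 of 14 genes, with summed levels of 11.15 to 11.64 against 9.86 to 10.85 in wild type arrays (log2 of the sum). Lens markers were higher in 7 of 8, with 14.38 to 14.92 in mutant and 13.50 to 14.75 in wild type arrays, and their median difference within same-numbered arrays 1 to 3 was 0.07, 0.15 and 1.51. Gliosis and glia markers were higher in 10 of 12, with 12.47 to 12.74 in mutant and 12.04 to 12.30 in wild type arrays. This list was uneven. Glul and Rlbp1 differed by -0.08 and -0.07, Slc1a3 and Aqp4 by 0.14 and 0.15, and the others by 0.63 (Vim) to 3.51 (Edn2). Microglia markers were higher in 8 of 8, with 8.95 to 9.11 in mutant and 8.54 to 8.66 in wild type arrays. The part of these cells and tissues in the results below was not tested.

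None of the shut-off and feedback probe sets changed past the threshold in mutant retina. By limma, with p values adjusted over all probe sets by the Benjamini-Hochberg method, 0 of 15 had an adjusted p under 0.05, where 0.0111% of all probe sets did. At that share a count of 0 was likely from the start. Edn2, with the difference of 3.51 given above, did not pass either (limma adjusted p = 0.297). At an unadjusted p under 0.05 there was 1 of 15, Sag, where 3.02% of all probe sets lay. With the replicate number as a block the counts were 0 and 2, against 0.0333% and 7.6% of all probe sets. The 15 differences of mutant minus wild type had a median of -0.21, beside 0.01 over all probe sets. Without both replicate 3 arrays, a choice made after seeing the data, the member median was -0.02. Of the 15 differences 11 lay below 0, where 46.4% of all probe sets did. At the brightest probe set of each gene the median was -0.16 over 10 genes, beside 0.02 over all genes.

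The intervals, all from the fit on group alone, show what sizes that fit leaves room for. At the brightest probe set, the 95% interval of 9 of 10 genes lay within 1 log2 unit of 0, that is, within a 2-fold difference in either direction. Gucy2e was the exception. Grk1, Guca1b and Arr3 came close to that bound, with lower ends of -0.96, -0.92 and -0.89. Over all 15 probe sets, 11 had an interval within the bound, and the widest belonged to an Rgs9 probe set that varied between arrays of the same group. The share of all genes or probe sets within the bound was not computed, so these counts only describe the members. With the replicate number as a block, the SE was smaller at every member probe set. It went from 0.70 to 0.13 at 1439635_at of Rgs9, from 0.43 to 0.21 at its 1426033_at and from 0.51 to 0.29 for Gucy2e.

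**Figure D1:**
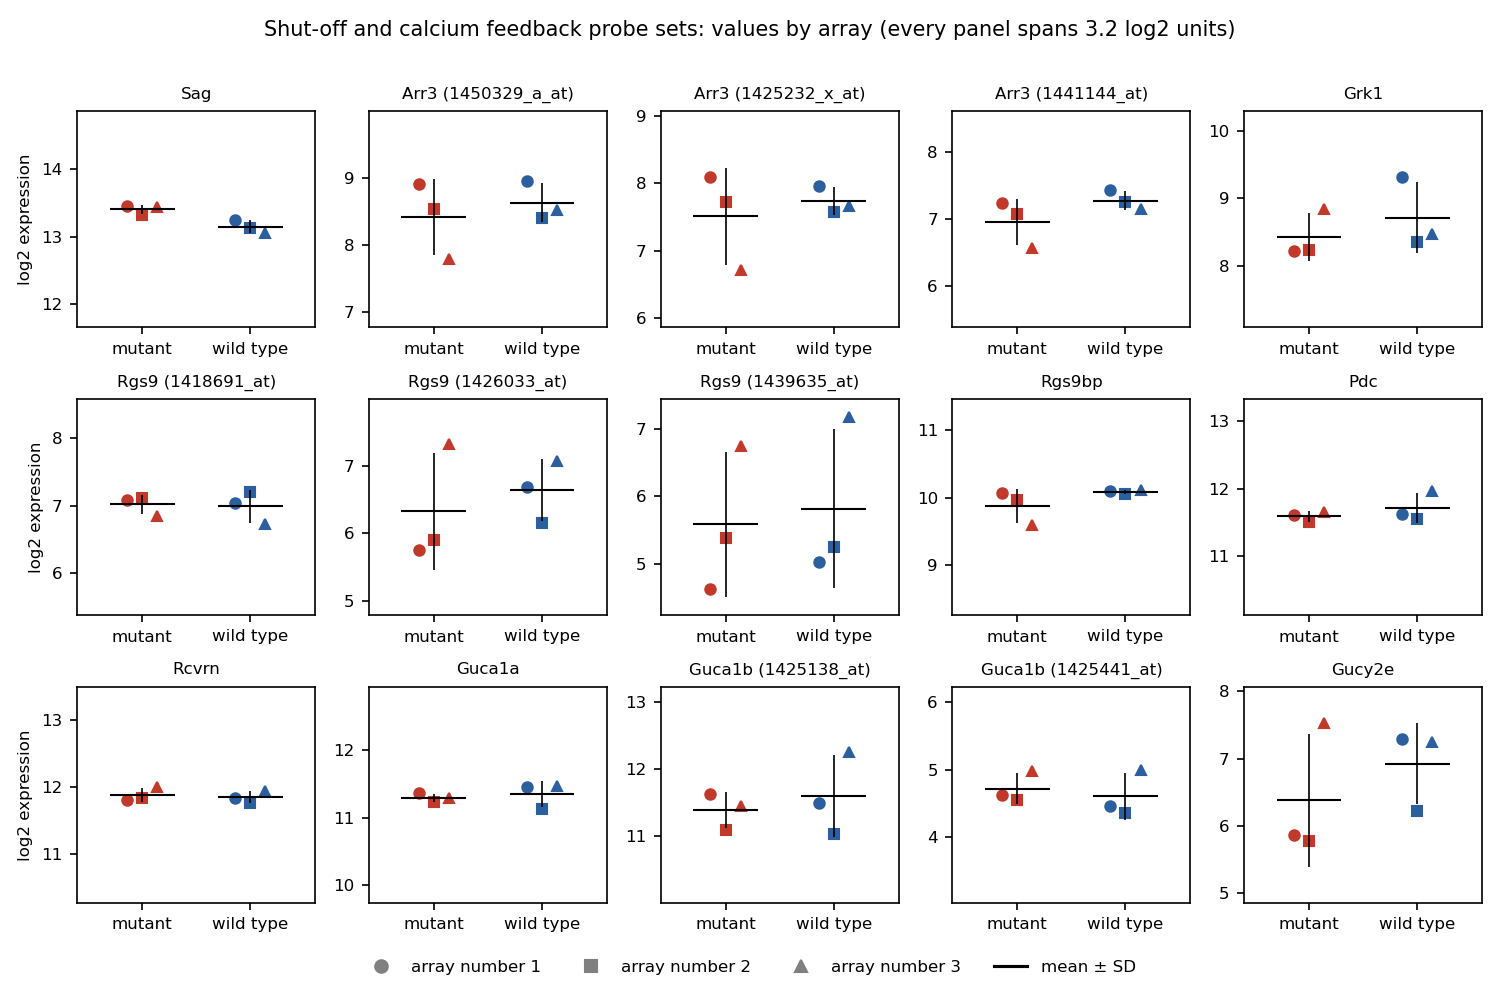
Log2 expression of each of the 15 probe sets by array (y axis, 3.2 log2 units in every panel), with mutant arrays at left and wild type arrays at right. Symbols give the array number, the line the mean and the bar the SD of 3 arrays; only for Sag do the mutant arrays all lie above the wild type arrays.

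The arrestins, which bind the phosphorylated pigment and stop it from activating transducin, had differences of opposite sign, neither past the threshold. Sag, on chromosome 1, encodes the arrestin of rods, and Arr3, on the X chromosome, encodes that of cones. The Sag probe set read 13.45, 13.32 and 13.44 on mutant arrays 1 to 3, against 13.25, 13.13 and 13.06 on wild type arrays. All mutant arrays lay above all wild type arrays, which was the case for 1 of 15 member probe sets and for groups that do not overlap in 7.8% of all probe sets. Sag was 0.26 higher (SE 0.09, 95% interval 0.04 to 0.48), which is 1.20-fold, with an unadjusted p of 0.0286 and an adjusted p of 1.00 (limma). Within the same-numbered arrays the differences were 0.20, 0.20 and 0.38, and without both replicate 3 arrays Sag was 0.20 higher. The probe set ranked between place 1 and place 6 of all probe sets by level on every array, so it lies at the top of the range that these arrays cover.

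Because Sag is expressed by rods, its value was set beside rod marker levels. Of 16 measured rod markers that are not members, 15 were lower in mutant retina, with a median difference of -0.22 and summed levels of 14.89 to 15.02 in mutant and 15.00 to 15.29 in wild type arrays (log2 of the sum). Their median difference within same-numbered arrays 1 to 3 was -0.11, -0.05 and -0.49, so it came mostly from the replicate 3 arrays. In pooled tissue, fewer rods and less RNA per rod cannot be told apart. Each array was next centred on the median level of these rod markers, which is set by the markers of middle level and does not measure rod content. This put the median difference of all probe sets at 0.16, in place of 0.01. Sag was 0.40 higher after this centring (SE 0.22). Its adjusted p was then 0.905 by limma, and the unadjusted p was 0.0752. Centring on cone markers in the same way put Sag at 0.39 (SE 0.16), so this larger value was not particular to rod markers. With further quantile normalization it was 0.22 (SE 0.10) and with array weights 0.19 (SE 0.08).

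Arr3 was read by 3 probe sets. The brightest read 8.90, 8.54 and 7.79 on mutant arrays 1 to 3, against 8.95, 8.41 and 8.52 on wild type arrays. Mutant replicate 3 lay below every other array, and the remaining mutant arrays lay among the wild type ones. The difference was -0.22 (SE 0.29, 95% interval -0.89 to 0.46, limma adjusted p = 1.00). The next probe set, whose type can cross-hybridise, read 8.10, 7.72 and 6.71 on mutant arrays, against 7.96, 7.57 and 7.66 on wild type arrays. The dimmest of the 3 read 7.23, 7.07 and 6.57 on mutant arrays, against 7.42, 7.25 and 7.14 on wild type arrays. Mutant replicate 3 was again lowest at both. Their differences were -0.22 (SE 0.33) and -0.31 (SE 0.18). Without mutant replicate 3 the 3 differences became 0.09, 0.18 and -0.12, so the lower mean of the brighter 2 probe sets rested on that array. The dimmest probe set was lower in all 3 same-numbered pairs, by -0.19, -0.18 and -0.57, and had an unadjusted p of 0.0247 with the replicate block in limma (adjusted p = 0.609). Of 12 measured cone markers other than members, 6 were higher and 6 lower, with a median difference of -0.01 and summed levels of 12.20 to 12.55 in mutant and 12.02 to 12.41 in wild type arrays.

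The windows around the start of both arrestin genes are shown because their differences had opposite signs, a contrast that was not tested. They are RefSeq sequence of GRCm38.p6, each 250 bases before to 50 after the gene start, on the + strand. Capitals mark GGATTA, a core that homeodomain factors such as Crx bind, and TGCTGA, part of the element that Maf factors such as Nrl bind, searched on both strands.
Sag (chr1:87803430-87803729): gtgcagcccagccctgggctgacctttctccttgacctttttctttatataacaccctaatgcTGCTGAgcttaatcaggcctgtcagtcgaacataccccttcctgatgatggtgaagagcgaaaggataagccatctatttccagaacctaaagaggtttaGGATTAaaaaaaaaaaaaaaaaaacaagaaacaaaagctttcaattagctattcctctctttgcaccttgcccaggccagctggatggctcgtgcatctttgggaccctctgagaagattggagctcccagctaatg
Arr3 (chrX:100605247-100605546): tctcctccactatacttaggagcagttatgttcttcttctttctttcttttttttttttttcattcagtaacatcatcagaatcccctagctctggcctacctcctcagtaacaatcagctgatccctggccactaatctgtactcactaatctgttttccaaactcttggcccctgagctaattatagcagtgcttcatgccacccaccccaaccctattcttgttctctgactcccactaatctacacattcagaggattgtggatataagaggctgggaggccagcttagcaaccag
The Sag window holds GGATTA 87 and TGCTGA 187 bases before the start, while the Arr3 window holds no exact match of either. Variants of these motifs were not searched, so a window without a match may still hold related sites. A link between the motifs and the differences was not tested. Of 7 members with a window, Sag, Guca1a and Gucy2e held GGATTA, beside 7.1% of all 32851 windows of this length. TGCTGA stood in the windows of Sag, Grk1 and Rgs9, beside 19.5% of all windows, and no occurrences of the 2 motifs overlapped. Rgs9bp, Rcvrn and Guca1b had no window in the table.

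Grk1, on chromosome 8, encodes the kinase that phosphorylates light-activated rhodopsin and, in mice, cone opsins. It read 8.21, 8.23 and 8.84 on mutant arrays, against 9.31, 8.36 and 8.48 on wild type arrays. Wild type replicate 1 was the highest array, and the groups overlapped. Grk1 differed by -0.29 (SE 0.29, 95% interval -0.96 to 0.39, limma adjusted p = 1.00). The same-numbered arrays differed by -1.10, -0.12 and 0.37, and without wild type replicate 1 the difference was 0.01. Without both replicate 3 arrays it was -0.61.

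The GTPase-activating complex joins Rgs9, its membrane anchor Rgs9bp and the long-form beta subunit Gnb5. Rgs9 makes a retinal and a brain form, and the sources used here do not say which form each probe set reads. The brightest Rgs9 probe set read 7.09, 7.11 and 6.85 on mutant arrays, against 7.04, 7.20 and 6.72 on wild type arrays. The groups overlapped, at a difference of 0.03 (SE 0.15, 95% interval -0.32 to 0.38). The other probe sets had wider spreads within each group. At 1439635_at the mutant arrays read 4.62, 5.39 and 6.74, against 5.02, 5.25 and 7.17 on wild type arrays. At 1426033_at they read 5.75, 5.90 and 7.31, against 6.69, 6.15 and 7.07 on wild type arrays. In both, the replicate 3 arrays of mutant and wild type were the highest. The differences were -0.23 (SE 0.70) and -0.31 (SE 0.43), and by limma both had an adjusted p of 1.00.

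Rgs9bp, on chromosome 7, read 10.08, 9.96 and 9.59 on mutant arrays, against 10.10, 10.05 and 10.12 on wild type arrays. The wild type arrays lay close together, and mutant replicate 3 stood below the rest. The difference was -0.21 (SE 0.14, 95% interval -0.53 to 0.11, limma adjusted p = 1.00), and it was lower in all 3 same-numbered pairs, by -0.02, -0.09 and -0.52. Without both replicate 3 arrays it was -0.05. Gnb5 averaged 10.81 ± 0.08 in mutant and 10.81 ± 0.15 in wild type retina (SD, n = 3 each). The subunits of the complex therefore had brightest-probe-set differences of 0.03, -0.21 and 0.00, none past the threshold.

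Pdc encodes phosducin, which binds the beta-gamma subunits of transducin, and Rcvrn encodes recoverin, the calcium-bound inhibitor of Grk1. Pdc, on chromosome 1, read 11.61, 11.50 and 11.65 on mutant arrays, against 11.63, 11.55 and 11.96 on wild type arrays. Only wild type replicate 3 stood out, above the rest, and Pdc was lower in all 3 same-numbered pairs, by -0.02, -0.05 and -0.31. Such a run of 3 lower pairs was seen in 3 of 15 member probe sets, those of Pdc, Rgs9bp and the dimmest of Arr3, and in 13.1% of all probe sets. The difference of Pdc was -0.12 (SE 0.13, 95% interval -0.42 to 0.18), and it was -0.03 without both replicate 3 arrays, 0.02 with rod marker centring and 0.01 with cone marker centring. Rcvrn, on chromosome 11, read 11.81, 11.83 and 12.00 on mutant arrays, against 11.84, 11.77 and 11.95 on wild type arrays. The groups lay over each other, at a difference of 0.03 (SE 0.10, 95% interval -0.21 to 0.26). Among the 15 probe sets, Rcvrn and Sag had the narrowest intervals.

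**Figure D2:**
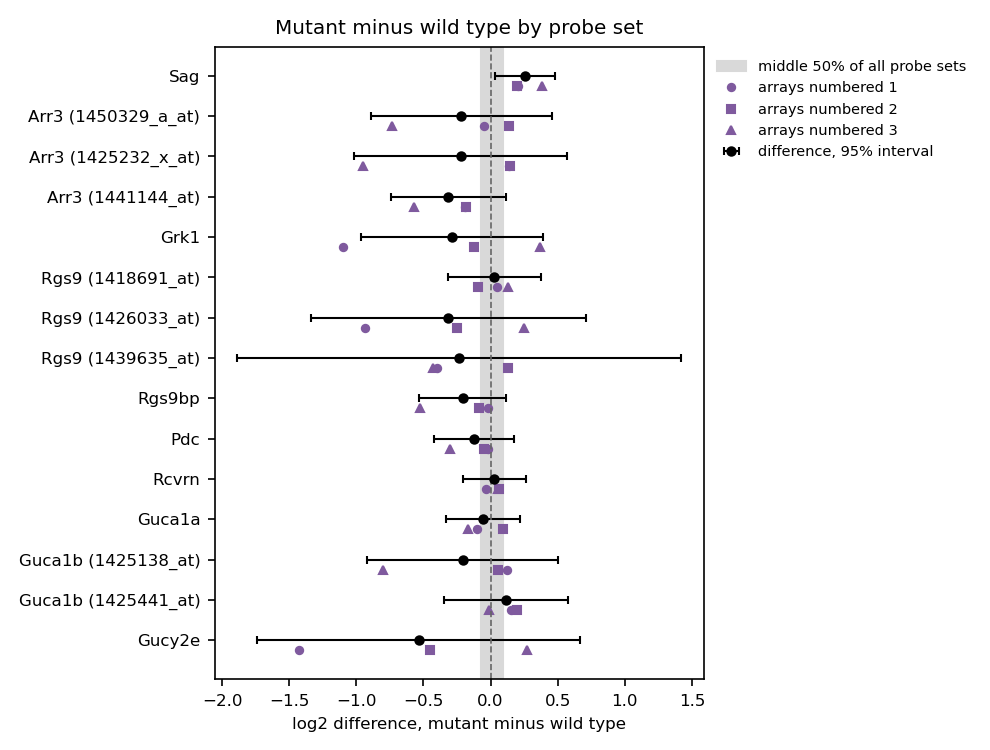
Log2 difference of mutant minus wild type (x axis) for the 15 probe sets, with its 95% interval from limma and, below each, the differences within same-numbered arrays. The grey band holds the middle 50% of all probe sets; 14 of the 15 intervals include 0, that of Sag being the exception.

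Guca1a and Guca1b encode the proteins that activate the cyclase when calcium is low, and they are neighbours on chromosome 17 in GRCm38.p6 order. Guca1a read 11.36, 11.23 and 11.30 on mutant arrays, against 11.46, 11.14 and 11.47 on wild type arrays. The mutant arrays lay inside the wild type range, and the difference was -0.06 (SE 0.12, 95% interval -0.34 to 0.22). Guca1b read 11.63, 11.10 and 11.45 on mutant arrays at its bright probe set, against 11.50, 11.04 and 12.25 on wild type arrays. Wild type replicate 3 was the highest array. The difference of -0.21 (SE 0.30, 95% interval -0.92 to 0.50) became 0.12 without that array. The dim Guca1b probe set was below the overall median of 4.76 on 4 arrays and differed by 0.11 (SE 0.20). Its signal may lie close to background, which was not tested.

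Gucy2e, on chromosome 11, encodes the main photoreceptor guanylate cyclase, which makes the cyclic GMP that holds the channels open. It read 5.86, 5.77 and 7.52 on mutant arrays, against 7.29, 6.23 and 7.25 on wild type arrays. Mutant replicates 1 and 2 were the lowest arrays and mutant replicate 3 the highest, so the mutant arrays spanned the whole wild type range. Gucy2e had the largest difference of the 15 probe sets, -0.54 (SE 0.51, 95% interval -1.74 to 0.67, limma adjusted p = 1.00). Without mutant replicate 3 it was -1.10, without mutant replicate 2 it was -0.23, and without both replicate 3 arrays it was -0.94. Same-numbered arrays differed by -1.43, -0.46 and 0.27. The window around its start, shown as the member with the largest difference and on the - strand of GRCm38.p6, holds GGATTA 42 bases before the start.
Gucy2e (chr11:69236973-69237272): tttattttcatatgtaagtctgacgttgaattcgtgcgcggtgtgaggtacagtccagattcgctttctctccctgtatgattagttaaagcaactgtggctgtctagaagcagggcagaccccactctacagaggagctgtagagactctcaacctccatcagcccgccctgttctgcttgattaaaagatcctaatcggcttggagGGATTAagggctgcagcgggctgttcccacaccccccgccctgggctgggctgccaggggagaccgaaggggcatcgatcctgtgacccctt

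The arrays also varied by their replicate number. For 14 of 15 probe sets, the range of the 3 means by array number was larger than the difference between mutant and wild type, Sag being the exception. A range over 3 means tends to be larger than a difference of 2 means. The share of all probe sets with this trait was not computed, so the count only describes the members. The number was therefore tested by an F test in limma with the replicate block, a test added after the values were seen. By this test 8 of 15 member probe sets had an unadjusted p under 0.05, beside 24.2% of all probe sets. All of these belonged to Arr3, Rgs9, Guca1b and Gucy2e, so several are repeat readings of the same gene. After adjustment 1 passed, beside 3.7%. It was 1439635_at of Rgs9 (adjusted p = 0.00798), whose means by number were 4.82, 5.32 and 6.96. The means of Gucy2e ranged over 1.39 log2 units and those of 1426033_at of Rgs9 over 1.16, both lowest for number 2 and highest for number 3. These were the 3 member probe sets whose means by number ranged over more than 1 log2 unit, beside 2.3% of all probe sets. The sources used here do not say what a number marks.

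**Figure D3:**
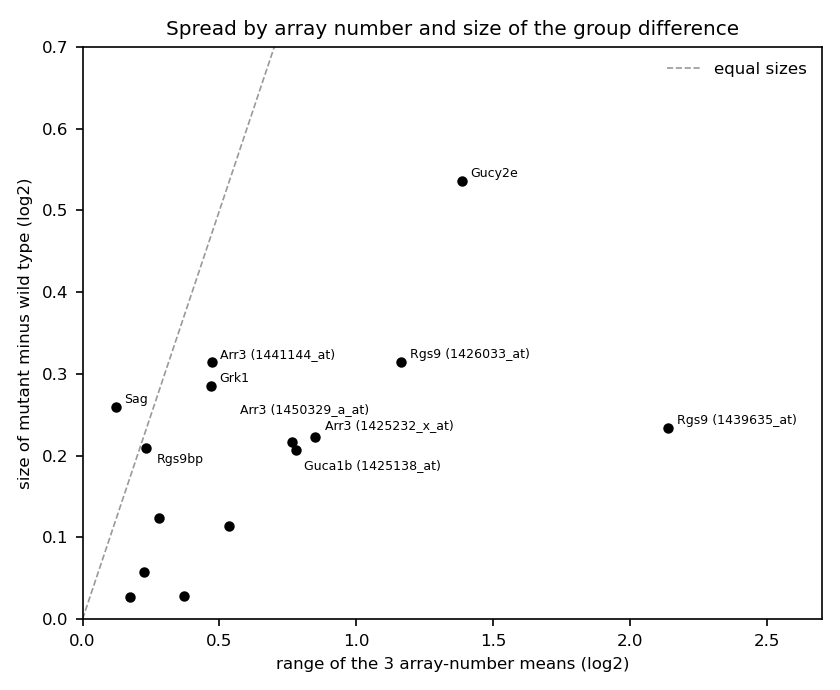
Size of the difference between mutant and wild type (y axis, log2) against the range of the 3 array-number means (x axis, log2) for the 15 probe sets, on axes of different scale. Sag lies left of the dashed line of equal sizes, and the other 14 lie right of it, a count without a share over all probe sets beside it.

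Neighbouring steps of phototransduction give the setting. Among proteins that work with the members, 5 of 9 listed genes were measured, and 0 passed over all probe sets in either direction. Rd3, which inhibits the cyclase and carries it to the outer segment, averaged 8.75 ± 0.12 in mutant and 8.49 ± 0.09 in wild type retina (SD, n = 3 each), 0.27 higher (SE 0.10, limma adjusted p = 1.00). Pdcl, a phosducin-like chaperone of beta subunits, differed by -0.22 (SE 0.10), Ppef2, a photoreceptor phosphatase, by -0.20 (SE 0.24), and Unc119, a carrier of lipidated transducin, by -0.11 (SE 0.11).

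The activation arm of rods was lower in all 9 measured genes and the arm of cones in 4 of 9, and 0 of either list passed. Over all genes, 7572 of 18193 were lower. All of the rod genes but Gnb1, and all of the cone genes but Slc24a2, also stand in the marker lists above. These are therefore largely the same values and no separate result. Rod activation genes had a median difference of -0.17, beside -0.16 for the shut-off genes. Within same-numbered arrays 1 to 3 the medians were -0.11, -0.02 and -0.43 for rod activation genes and -0.03, 0.01 and -0.06 for the shut-off genes, so the rod value came mostly from the replicate 3 arrays. The smallest p values belonged to the exchanger gene Slc24a1 (-0.28, SE 0.11), the phosphodiesterase genes Pde6b (-0.24, SE 0.12) and Pde6g (-0.17, SE 0.09), and the channel gene Cngb1 (-0.20, SE 0.10). In the cone list, which had a median of 0.03, the phosphodiesterase gene Pde6c differed by 0.76 (SE 0.12, limma adjusted p = 0.479) and the transducin gene Gnb3 by 0.99 (SE 0.21, limma adjusted p = 0.920). Opn1mw, a cone opsin, differed by -0.31 (SE 0.15), and the exchanger gene Slc24a2 by -0.20 (SE 0.11). Arr3, the cone member, had the sign of Opn1mw and Slc24a2 and not that of Pde6c and Gnb3, and differences between these genes were not tested.

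Paralogs that serve other receptors or cells had a median of 0.02 over 20 measured genes, of which 0 passed. The smallest p belonged to Rgs11, a regulator of G protein signalling in ON bipolar cells (0.34, SE 0.10, limma adjusted p = 1.00). Vsnl1 and Hpca, neuronal calcium sensors related to recoverin, differed by -0.33 (SE 0.16) and -0.22 (SE 0.16). Grk3, a receptor kinase, differed by 0.09 (SE 0.09).

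**Figure D4:**
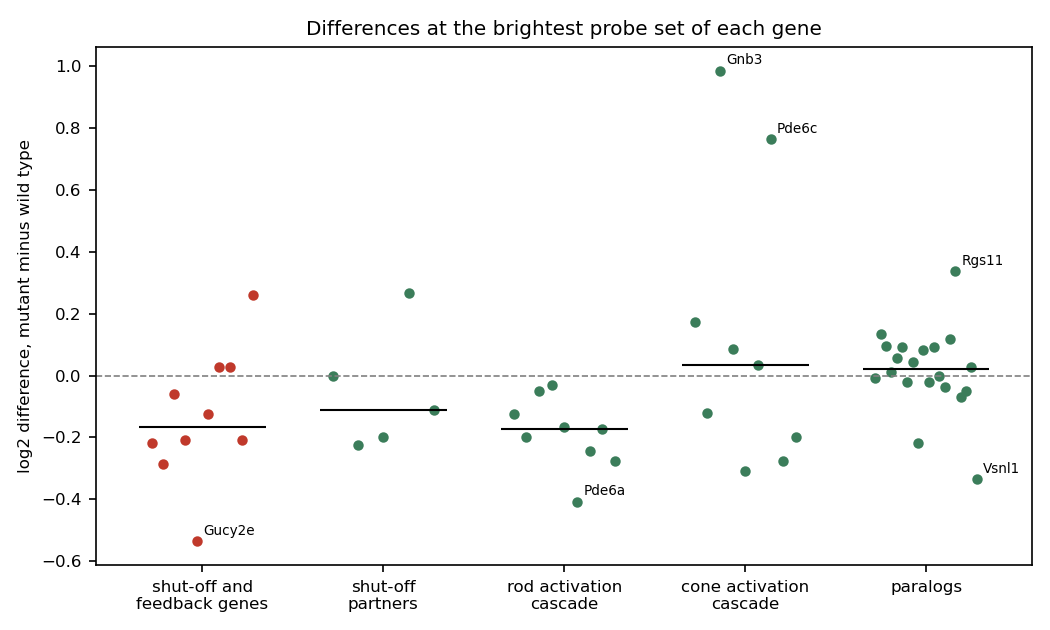
Log2 difference of mutant minus wild type (y axis) at the brightest probe set of each gene, for the 10 shut-off and feedback genes and 4 related lists, with the median of each list as a line. Genes past 0.33 in size are named; the shut-off genes and rod activation genes have medians of -0.16 and -0.17, and the cone arm and the paralogs of 0.03 and 0.02.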

How the data were processed

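The values are deposited log2 expression levels, computed by RMA according to the submitters' processing notes, with no version named. This method corrects background, brings arrays to a common distribution and summarises probes. Trizol and RNeasy columns were used to extract the RNA, per the labels' protocols. Of 45101 probe sets, 64 manufacturer controls were left out. The platform annotation gives 1 gene symbol for 34945 probe sets, several for 932, and 9160 are not named here. Lists used the brightest probe set of each gene.

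Groups followed the sample titles. The test was limma 3.58.1 (lmFit and eBayes, R 4.3.3) on group alone, with adjustment over 45037 probe sets and a threshold of 0.05. Intervals are 95% intervals from the moderated fit, and their width is limited by the 3 arrays per group. Arrays sharing a number deviated together from their group means, with correlations of 0.477, 0.469 and 0.563, all over 0.1. Arrays with different numbers ran from -0.452 to 0.175, so that bound alone does not set the same-numbered arrays apart. Same-numbered arrays were treated as pairs in the pair differences and the replicate block, and not in the main test. No label says what a number marks. Named genes were all members and, per list, those past the threshold and up to 4 with the smallest p. The members and lists were chosen with earlier results of these data known. Alternatives were the replicate block, dim filters, further normalization and centring (also on rod or cone markers), moderated variance settings, array weights, leaving out cross-hybridising probe sets, gene means, a looser threshold, and leaving out arrays. The fits were tested on simulated data. Figures were drawn with matplotlib 3.10.9.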

Additional observations from a re-analysis of the deposited data

How the results depend on the processing

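The count of 0 member probe sets past the threshold held under every alternative run: over 261 alternative values the smallest adjusted p was 0.498 (Rgs9, 1426033_at, without both replicate 3 arrays). In any run only 2 to 25 of all probe sets passed. A member count of 0 was therefore likely from the start and says little about the members. The replicate block left the member count at 0 and changed no call of a member. Over all probe sets the count of 5 became 15 with the replicate block, 2 with the filter that asks for the overall median on all 6 arrays, 25 with rod marker centring, 11 with cone marker centring, 25 with array weights, 3 without cross-hybridising probe sets and 16 without both replicate 3 arrays, and it lay between 2 and 9 without single arrays. The causes were not tested. The member median of -0.21 ran from -0.30 to -0.07 without single arrays. It was -0.08 with array weights and -0.02 without both replicate 3 arrays. With rod and cone marker centring it was -0.06 and -0.08. These 2 centrings put the median difference of all probe sets at 0.16 and 0.14, in place of 0.01. Each takes the median marker level of an array, so it need not follow the markers' median difference. That difference was -0.22 for rod and -0.01 for cone markers. Neither centring measures rod or cone content.

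Of the 261 values, 23 had the other sign, all of differences not past the threshold. With rod and cone marker centring these were Pdc (0.022 and 0.011) and Guca1a (0.088 and 0.076). Without both replicate 3 arrays they were Arr3 at 1450329_a_at (0.041) and 1425232_x_at (0.14), Rgs9 at 1418691_at (-0.023) and Guca1b at 1425138_at (0.091). Rgs9 at 1418691_at was also -0.0055 with array weights and -0.17 as the mean of its probe sets. Without single arrays, Arr3 ran from -0.46 to 0.092 at 1450329_a_at and from -0.52 to 0.18 at 1425232_x_at, Grk1 from -0.49 to 0.013, Rgs9 from -0.11 to 0.14 at 1418691_at and from -0.81 to 0.45 at 1439635_at, Rcvrn from -0.034 to 0.074, and Guca1b from -0.49 to 0.12 at 1425138_at and from -0.018 to 0.31 at 1425441_at. The dim Guca1b probe set lay below the overall median on 4 arrays and Rgs9 at 1439635_at on 1, so neither passed the filter that asks for all 6 arrays. Whether signal close to background limits them was not tested.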

Other observations

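The genes whose array profile lay nearest to the 2 members with the largest differences at their brightest probe sets were found by the mean absolute difference between values, each centred on its own mean over the 6 arrays. For Gucy2e these were Tug1, a long noncoding RNA gene (0.25 log2 units), Wasf3, an actin regulator gene (0.25), and Lysmd3 (0.27). They differed by -0.63, -0.37 and -0.44 between mutant and wild type, and their means by array number ranged over 1.10, 0.79 and 1.32. For Grk1 they were Gpr158 (0.09), Pcsk1, a prohormone convertase gene (0.13), and Mid1 (0.14), with differences of -0.23, -0.24 and -0.46. These are descriptions of 6 arrays chosen from 18193 genes.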
